A study of Mus musculus with 2 samples.

Results

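Nr4a1, Nr4a2, Nr4a3, Egr1, Egr2, Egr3, Ier2, Cd5 and Cd69 are genes whose transcription follows antigen receptor signals in T cells. The 9 genes were chosen by name in the GENCODE M21 annotation, out of 55536 named genes in the table of each library. Each name matched 1 gene. The assay was sequencing of polyadenylated RNA from primary cells labelled as regulatory T cells, male and adult at 9 weeks. The strain was Foxp3GFP-DTRCD4CreERT2R26tdTomato. Its name carries a reporter with a diphtheria toxin receptor at Foxp3, an inducible Cre named with CD4 and a tdTomato allele at R26, and both libraries share all of them. The labels gave 2 technical replicate libraries of 1 biological replicate, named here replicate 1 and replicate 2. They named the whole organism as the origin and stated neither a tissue, a sort, a treatment nor the number of animals. There was 1 group, so no condition could be compared, and every difference below is between these 2 libraries.

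The NR4A proteins (NUR77, NURR1 and NOR1) are nuclear receptors that act without a known physiological ligand, and the EGR proteins are zinc finger transcription factors. Both families are immediate early genes: T cell receptor signals switch them on without new protein synthesis, and their messages are short-lived. Ier2 is another immediate early gene. CD5 is a surface receptor that dampens antigen receptor signals and whose level is set by the strength of self-recognition. CD69 is an early activation antigen that removes the sphingosine phosphate receptor S1PR1 from the surface and so holds cells in tissue. In regulatory T cells, which see self antigen, these genes are commonly read as a record of recent receptor signals, and NR4A factors take part in the induction and upkeep of Foxp3.

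The upstream sequences are shown because immediate early genes are classically driven by serum response and cyclic AMP response elements close to the start site. RefSeq windows of 250 bases before the start on GRCm38.p6 were found for 5 of the 9 genes, Nr4a1, Nr4a2, Nr4a3, Egr2 and Cd5. Egr2 had 5 annotated start sites, and the one nearest the start of its leading coding transcript was used. The windows of Nr4a1, Nr4a2 and Egr2 held no annotated exon of their own gene and are printed in the direction of the gene, 5′ to 3′. Capitals mark the cyclic AMP response core TGACG, the EGR site GCGNGGGCG and the CArG box, the serum response factor site, each on either strand. The Nr4a1 window is chr15:101266596-101266845 on the plus strand, the Nr4a2 window chr2:57124004-57124253 on the minus strand, and the Egr2 window chr10:67537619-67537868 on the plus strand.
Nr4a1: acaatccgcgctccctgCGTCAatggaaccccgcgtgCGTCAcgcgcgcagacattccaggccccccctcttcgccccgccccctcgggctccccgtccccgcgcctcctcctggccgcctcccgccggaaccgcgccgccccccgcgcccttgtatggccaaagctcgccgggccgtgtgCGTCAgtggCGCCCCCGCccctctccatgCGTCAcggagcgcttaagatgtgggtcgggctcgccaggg
Nr4a2: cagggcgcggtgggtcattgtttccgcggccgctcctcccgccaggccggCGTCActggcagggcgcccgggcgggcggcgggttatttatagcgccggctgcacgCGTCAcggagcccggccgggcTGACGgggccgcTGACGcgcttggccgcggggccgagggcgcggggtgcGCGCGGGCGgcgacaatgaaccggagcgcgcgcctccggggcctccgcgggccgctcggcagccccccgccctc
Egr2: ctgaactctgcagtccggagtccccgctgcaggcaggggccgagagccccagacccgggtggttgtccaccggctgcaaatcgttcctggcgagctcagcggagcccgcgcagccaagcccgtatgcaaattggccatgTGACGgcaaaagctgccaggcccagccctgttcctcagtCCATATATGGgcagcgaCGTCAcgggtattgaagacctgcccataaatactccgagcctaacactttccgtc

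The cyclic AMP response core was matched 4 times in the window of each Nr4a gene, 2 times in that of Egr2 and 0 times in that of Cd5. In the Nr4a3 window 152 of the 250 bases are annotated exon of Nr4a3, and its match at 147 to 143 bases before the RefSeq start lies in them. Of 32536 distinct RefSeq windows of the same length, 17.9% held at least 1 match, 3.92% at least 2 and 0.138% at least 4. The complete palindrome TGACGTCA, which contains the core, had no match in the 5 windows and stood in 1.56% of all windows. Egr2 alone of the 5 held a CArG box, 72 to 63 bases before its start, a motif present in 1.48% of windows. The EGR site was matched once in Nr4a1, 60 to 52 bases upstream, and once in Nr4a2, 74 to 66 bases upstream, against 4.74% of windows. Both EGR matches overlap a GC box GGGCGG. The AP-1 site TGANTCA, the MEF2 site and the NR4A monomer site AAAGGTCA had no match in these 5 windows. A match describes letters and shows no binding, and the Nr4a windows are rich in G and C, with 74.4% in Nr4a1, 80% in Nr4a2 and 63.6% in Nr4a3.

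**Figure D1:**
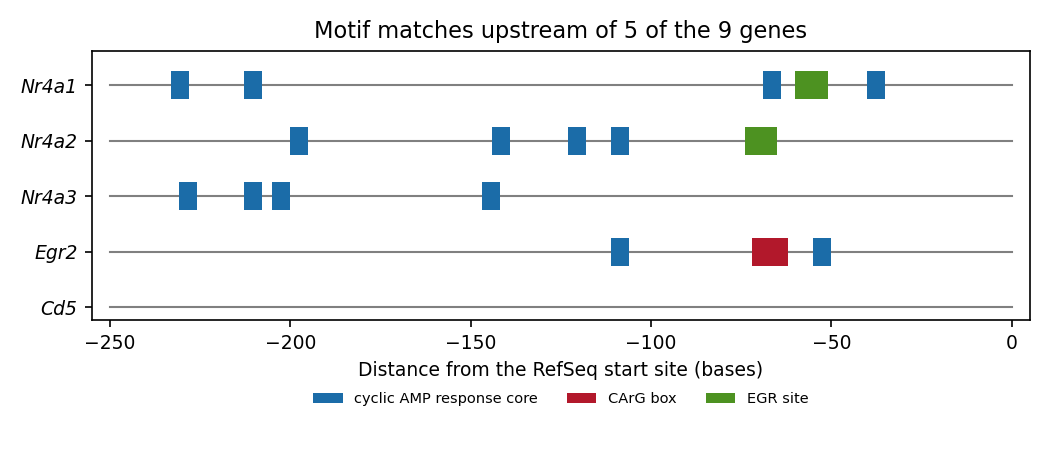
Matches of 3 motifs in the 250 bases before the RefSeq start site of 5 genes, with the distance from the start in bases on the horizontal axis and 1 gene per line. Each Nr4a line carries 4 cyclic AMP response cores, Egr2 carries 2 cores and a CArG box, and the Cd5 line is empty. The Nr4a3 core nearest the start lies in an annotated exon of Nr4a3.

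For Nr4a1, Egr2 and Cd5 the RefSeq start was the same base as the start of the leading protein-coding transcript in these libraries. In Egr2 the nearest of 5 start sites had been taken, so this match was selected for. For Nr4a2 the leading coding transcript began 10931 bases downstream of the RefSeq start. For Nr4a3 it was a different model in each library. Nr4a3-203, which took all coding counts in replicate 1, begins 3809 bases downstream of the RefSeq start, and Nr4a3-201, which took them in replicate 2, begins 152 bases upstream. The Nr4a2 window therefore lies before the start of 2 other annotated transcripts, Nr4a2-203 and Nr4a2-206, and transcription starts were not measured.

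The 3′ ends are shown because the pentamer ATTTA is the core of AU-rich elements, which mark short-lived messages. It occurred in the 3′ UTR of the coding transcript of highest mean TPM in 7 of the 9 genes, against 62.7% of 10380 detected protein-coding genes. Each window below is 30 bases of that UTR, 5′ to 3′ on mm10 coordinates, with the pentamer in capitals. It is centred on the heptamer TATTTAT in Nr4a2, Nr4a3 and Cd69, which contain it, and on the first pentamer in the others. The windows are chr15:101274690-101274719 for Nr4a1, chr2:57107544-57107573 for Nr4a2, chr4:48084754-48084783 for Nr4a3, chr14:70081097-70081126 for Egr3 and chr6:129267932-129267961 for Cd69. Nr4a2 and Cd69 are on the minus strand.
Nr4a1: tgacagattctgATTTAtatttgtgtattt
Nr4a2: tattttgtgcctATTTAtgaataaatatta
Nr4a3: agctttgcctgtATTTAttgcaagaccacc
Egr3: ttagacacatatATTTAcataacacacact
Cd69: tctagagttactATTTAttgccgaatgact

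Nr4a1 and Nr4a2 held 3 pentamers each in short 3′ UTRs of 543 and 657 bases, or 5.52 and 4.57 per kilobase. The Nr4a2 value is that of Nr4a2-202 alone, a model of transcript support level 5 with 19.1 and 22.7 counts. The other full coding models, Nr4a2-201 and Nr4a2-203, have longer 3′ UTRs of 1326 bases, which were not searched. The median density over the detected coding genes was 1.15 per kilobase, and 94.2% of them had a lower density than Nr4a1. Egr3 held 7 pentamers, the most among the 9 genes, in 2645 bases. Nr4a3 held 5 in 3093 bases, Egr2 held 3 in 1200 bases, Egr1 held 2 in 1188 bases and Cd69 held 2 in 936 bases. The heptamer stood in the UTR of 25.2% of the detected coding genes and of 3 of the 9 genes. Ier2 and Cd5 had no ATTTA in their 3′ UTRs of 755 and 454 bases.

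All 9 genes were detected, meaning at least 1 TPM (a level scaled for transcript length and library depth) in both libraries. By the same measure 23.4% of all named genes and 47.5% of 22028 protein-coding genes were detected. The genes spread from 2.83 to 507 TPM in mean level, while the median of the detected protein-coding genes was 25.5 TPM. The newer gene tables held 20891069 counts in replicate 1 and 18571065 in replicate 2. Every one of the 9 genes had whole-number expected counts in both libraries, with zeros in the 2 deposited decimals, whereas 53.8% of the 16553 genes with at least 10 counts did. Reads that are divided between genes usually leave fractions. In bulk RNA, more cells with a transcript and more transcript per cell cannot be told apart.

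Cd5, on chromosome 19 from 10717116 to 10739002, was the highest of the 9 genes. Its level was 502 TPM in replicate 1 and 513 TPM in replicate 2 (507 ± 7.49, SD, n = 2 technical libraries), from 13942 and 12098 counts. The libraries were nearly equal for this gene, which stood at rank 281 of all genes and above 97.8% of the detected coding genes. Cd69, on chromosome 6 from 129267325 to 129275436, was at 157 TPM in replicate 1 and 124 TPM in replicate 2 (140 ± 23.3, SD, n = 2). Cd69 lay above 88.8% of the detected coding genes, and replicate 1 was its high library. The ratio of Cd5 to Cd69 in TPM was 3.20 in replicate 1 and 4.14 in replicate 2.

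Nr4a1, on chromosome 15 from 101254269 to 101274795, made up nearly all of the Nr4a message. It was at 93.2 TPM in replicate 1 and 108 TPM in replicate 2 (101 ± 10.3, SD, n = 2), from 3134 and 3000 counts. Nr4a3, on chromosome 4 from 48045153 to 48086447, was at 3.57 and 5.75 TPM (4.66 ± 1.54, SD, n = 2). Nr4a2, on chromosome 2 from 57106830 to 57124003, was at 1.5 and 4.16 TPM (2.83 ± 1.88, SD, n = 2), from 54 and 68 counts. The ranges of Nr4a1 and of the other 2 Nr4a genes were far apart, and Nr4a1 held 94.8% of the summed Nr4a TPM in replicate 1 and 91.6% in replicate 2. Nr4a1 exceeded Nr4a3 by 26.1 and 18.8 times and Nr4a2 by 62.1 and 25.9 times in TPM. Over protein-coding transcripts only, it exceeded Nr4a3 by 61.5 and 57.1 times and Nr4a2 by 92.8 and 60.8 times.

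Egr2, on chromosome 10 from 67535475 to 67542188, was the highest Egr gene in both libraries. It was at 47.2 TPM in replicate 1 and 42.6 TPM in replicate 2 (44.9 ± 3.25, SD, n = 2), from 1906 and 1477 counts. Egr1, on chromosome 18 from 34859823 to 34864984, was at 15.7 and 35.3 TPM (25.5 ± 13.8, SD, n = 2), from 671 and 1281 counts. Replicate 1 was the low library for Egr1, and the ranges of Egr1 and Egr2 did not overlap. Egr3, on chromosome 14 from 70077203 to 70082614, was at 4.23 and 6.22 TPM (5.22 ± 1.41, SD, n = 2). Egr2 held 70.3% of the summed Egr TPM in replicate 1 and 50.7% in replicate 2, while Egr1 held 23.4% and 41.9% and Egr3 held 6.30% and 7.40%. The make-up of the Egr family thus differed more between the libraries than that of the Nr4a family.

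Ier2, a single-exon gene on chromosome 8 from 84661331 to 84662852, was at 89.0 TPM in replicate 1 and 210 TPM in replicate 2 (149 ± 85.2, SD, n = 2), from 1851 and 3693 counts. Its libraries were the farthest apart of the 9 genes in counts. The ratio of Ier2 to Egr1 in TPM was 5.65 in replicate 1 and 5.94 in replicate 2, both genes being low in replicate 1. In the older gene tables described below the ratio was not kept. There Ier2 had 575 and 871 counts and Egr1 had 310 and 650.

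In order of mean TPM the genes ran Cd5, Ier2, Cd69, Nr4a1, Egr2, Egr1, Egr3, Nr4a3 and Nr4a2. The ranges of the 2 libraries overlapped for 3 of the 8 neighbouring pairs, Ier2 with Cd69, Egr3 with Nr4a3 and Nr4a3 with Nr4a2, so the order within them is within the spread. Ier2 and Cd69 traded places, Ier2 being at 0.567 times the level of Cd69 in replicate 1 and at 1.69 times in replicate 2. Over protein-coding transcripts only, the order was the same and the ranges of Egr3 (2.36 and 4.26 TPM) and Nr4a3 (1.48 and 1.79 TPM) no longer overlapped. Egr1 stood at the middle of the detected coding genes, above 50% of them. Egr3, Nr4a3 and Nr4a2 lay low among the detected coding genes, above only 17.8%, 16% and 9.24% of them.

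**Figure D2:**
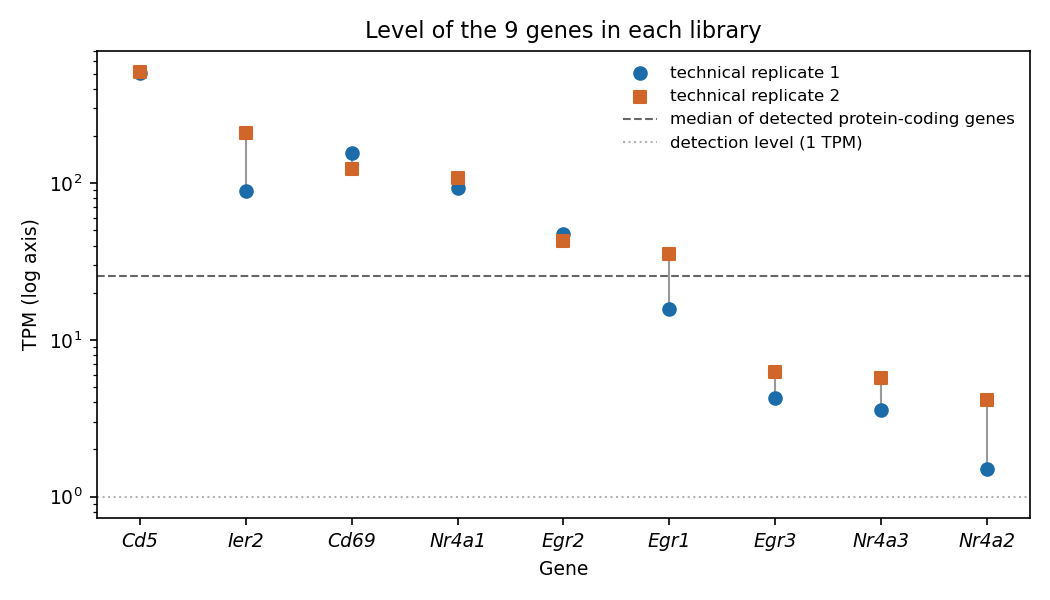
TPM of the 9 genes in each library on a log axis, with replicate 1 as circles, replicate 2 as squares, a line joining the libraries of a gene, a dashed line at the median of the detected protein-coding genes (25.5 TPM) and a dotted line at the detection level of 1 TPM. Cd5 stands at the top with both libraries together, Ier2, Egr1 and Nr4a2 show the widest gaps, and Egr3, Nr4a3 and Nr4a2 lie below the median line.

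The annotation gave these genes 37 transcripts, 25 of them protein coding, and 32 received reads in at least 1 library. For 7 of the 9 genes the transcript with the largest share of the gene's TPM was the same in both libraries. Ier2 has a single transcript. Nr4a1-201 held 93.1% of the Nr4a1 TPM in replicate 1 and 87.7% in replicate 2, Cd5-201 held 85.7% and 84.9% of Cd5, and Egr2-201 held 90.5% and 85.8% of Egr2. Egr2-202, a model of 3 exons, held 5.16% and 12.1%. For Egr1, nearly all TPM went to Egr1-202, a model of 3 exons and 3036 bases of transcript support level 5, with 97.7% and 96.6%. The 2-exon model Egr1-201 of 4484 bases held the remaining 2.26% and 3.43%.

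The genes of low level were split among several models, and the short ones weighed more in TPM than in counts. Nr4a3-204, a processed transcript of 895 bases that is not annotated as coding, held 58.6% of the Nr4a3 TPM in replicate 1 and 51.9% in replicate 2 but only 19.2% and 18.2% of its counts. The coding reads of Nr4a3 were assigned to Nr4a3-203 in replicate 1 (105 counts against 0) and to Nr4a3-201 in replicate 2 (0 against 121 counts). The processed transcript Nr4a3-202 held 0% and 17% of TPM. Nr4a3-203 and Nr4a3-201 begin at different first exons, and each received all or none of the coding counts of a library.

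Nr4a2 had a different leading transcript in each library, Nr4a2-202 with 38.3% in replicate 1 and Nr4a2-204 with 48% in replicate 2. Nr4a2-204 is a processed transcript of 182 bases. It received 0 counts in replicate 1 and 3.17 in replicate 2, which became 1.99 of the 4.16 TPM of the gene although they were 4.66% of its counts. Without transcripts under 300 bases Nr4a2 was at 1.51 and 2.16 TPM, and over coding transcripts alone at 0.98 and 1.68 TPM, just below and above the detection level. The TPM of Nr4a2 was 2.77 times as high in replicate 2, while its depth-scaled count was 1.48 times as high. The coding models Nr4a2-201 and Nr4a2-203 held 26.5% and 0% of its TPM in replicate 1 and 10.6% and 10.4% in replicate 2. The processed transcript Nr4a2-205 held 18.4% and 11.6%, and Nr4a2-206, a target of nonsense-mediated decay by annotation, held 16.7% and 0%.

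Egr3 was led by the retained-intron model Egr3-202 in replicate 1, with 44.3% of TPM against 31.4% in replicate 2. This model of 3876 bases held 52% and 34.8% of the Egr3 counts. The coding model Egr3-204 led in replicate 2, with 51.5% against 31%, and the coding model Egr3-201 held 24.7% and 17.1%. Cd69-201 led Cd69 in both libraries with 87.6% and 88.2%. The retained-intron model Cd69-204 of 4968 bases held 10.6% and 9.14% of the Cd69 TPM and 26.5% and 23.6% of its counts. Whether those reads were unspliced RNA was not tested.

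**Figure D3:**
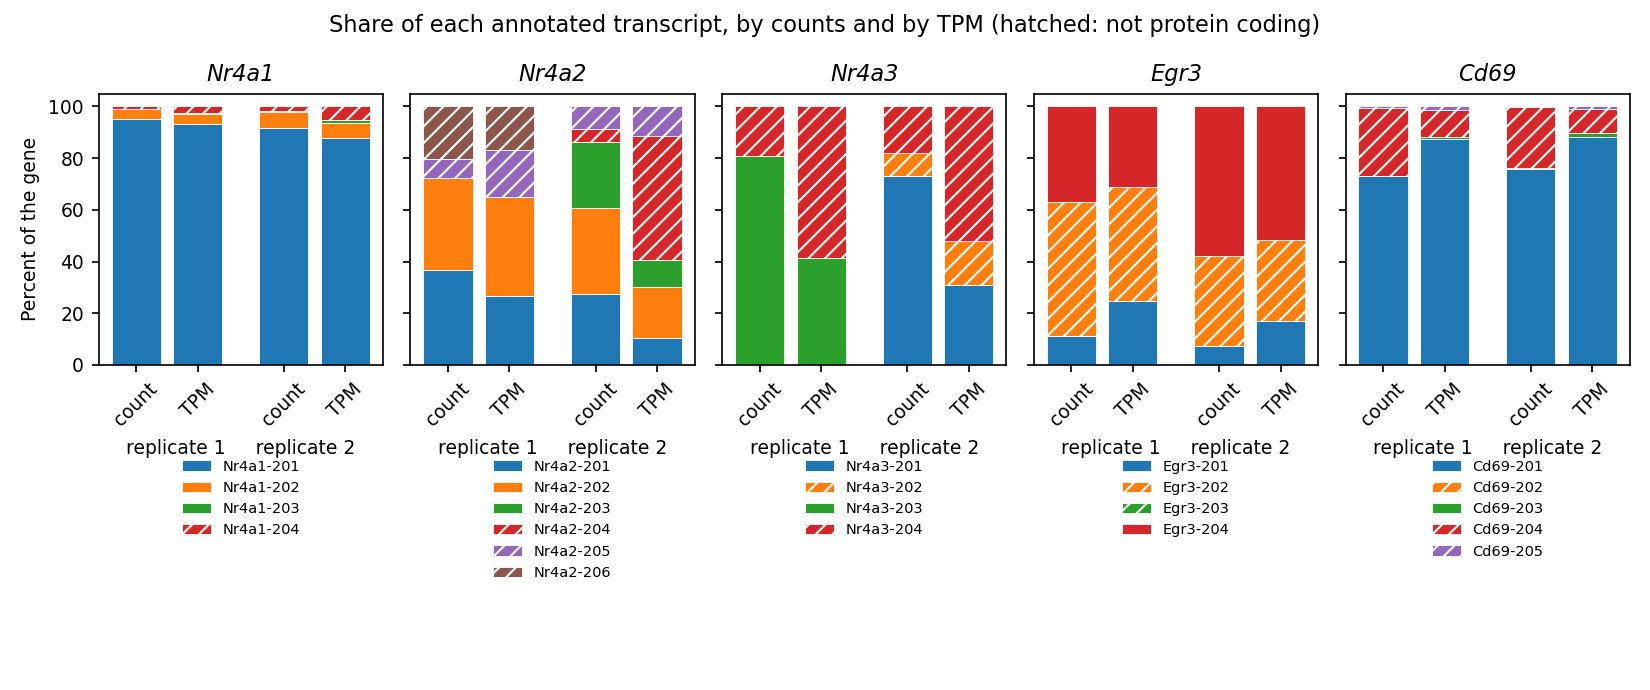
Share of each annotated transcript, in percent of its gene, by counts and by TPM in replicate 1 (left pair of bars) and replicate 2 (right pair) for 5 genes, with transcripts that are not protein coding hatched. Nr4a1 is nearly a single colour, Nr4a3-204 is 19.2% of counts but 58.6% of TPM in replicate 1, and Nr4a2-204 is 4.66% of counts but 48% of TPM in replicate 2.

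The libraries were then compared gene by gene with an exact binomial test on rounded expected counts, scaled by TMM and adjusted by Benjamini-Hochberg over 16553 genes. The test covers counting error only and has no replicate check. At an adjusted p under 0.05 it called 7 of the 9 genes, 5 higher and 2 lower in replicate 2, where it called 34.7% of all genes, 21.6% higher and 13% lower. The median log2 ratio of replicate 2 over replicate 1 was 0.56 over the 9 genes and 0.02 over all genes tested. With total counts as the scale the same test called 47.9% of all its calls higher, against 62.4% with TMM and 54.1% with DESeq2 size factors. With each of these scalings it called 7 of the 9 genes, 5 higher and 2 lower. Over all 16553 genes it called 6444 with total counts, 5736 with TMM and 6064 with DESeq2 size factors.

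Ier2 and Egr1 were the genes farthest apart. Ier2 was higher in replicate 2 by 1.23 ± 0.04 on the log2 scale (counting SE, adjusted p = 8.78e-208, exact binomial test), and 6% of tested genes were at least as far apart. Egr1 was higher by 1.17 ± 0.07 (adjusted p = 1.52e-66, exact binomial test), and 7.13% of genes were at least as far apart. These were the 2 of the 9 genes at least 2-fold apart, among 10.6% of all genes tested. Among the 11161 genes with at least 100 counts over both libraries, 541 were at least 2-fold apart. There 1.53% were at least as far apart as Ier2 and 2.2% as Egr1. Egr3, Nr4a3 and Nr4a1 were higher by 0.63 ± 0.14, 0.59 ± 0.17 and 0.17 ± 0.04 (adjusted p = 2.04e-05, 0.00234 and 2.28e-05, exact binomial test). Cd69 fell by 0.39 ± 0.03 and Egr2 by 0.13 ± 0.05 from replicate 1 to replicate 2 (adjusted p = 7.8e-28 and 0.0243, exact binomial test). Nr4a2, at 0.56 ± 0.26, and Cd5, at 0.03 ± 0.02, were not called (adjusted p = 0.0929 and 0.224, exact binomial test).

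Where a spread between libraries was allowed for, none of the 9 genes was called. edgeR's exactTest, with a common dispersion of 0.0468 estimated from both libraries as 1 group, called 0.622% of all genes and 0 of the 9, of which 2 had an unadjusted p under 0.05. The adjusted p was 0.363 for Ier2 and 0.428 for Egr1. The dispersion, a coefficient of variation of 21.6%, contains the differences under test. The authors' 95% credibility bounds of the posterior mean TPM each describe 1 library and no spread between libraries. They did not overlap for Ier2 (76.6 to 83.9 and 179 to 191), Egr1, Cd69 and Nr4a1, and overlapped for the other 5 genes. Ier2 has 1 transcript and whole-number counts, so its bounds do not stand for the assigning of reads alone.

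**Figure D4:**
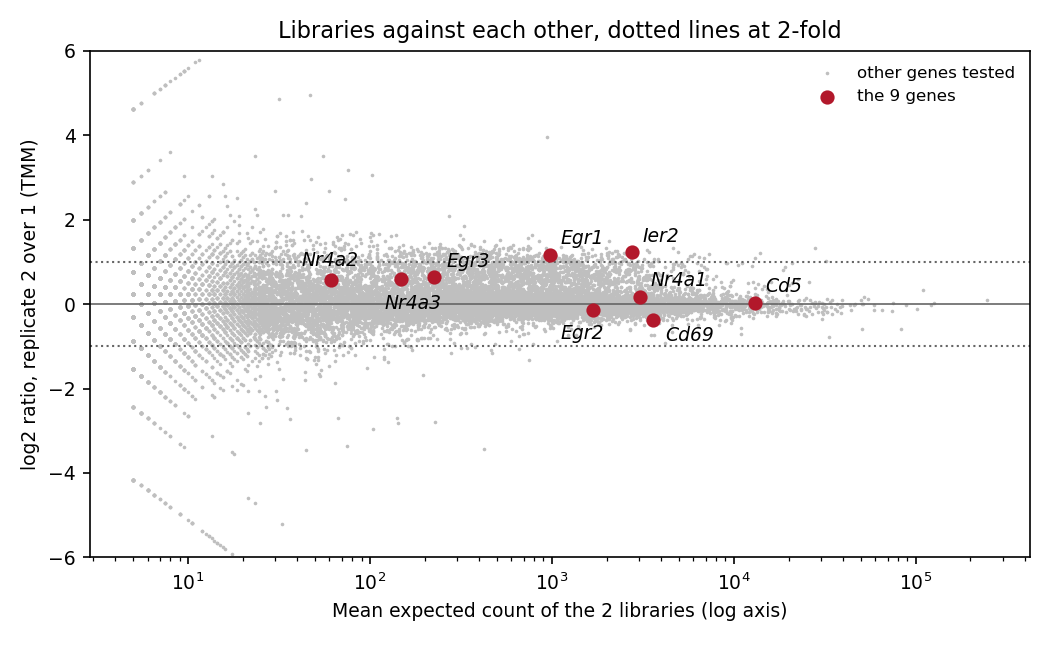
Log2 ratio of replicate 2 over replicate 1 after TMM scaling against the mean expected count on a log axis, for all genes tested in grey and the 9 genes in red, with dotted lines at 2-fold and 35 genes beyond the vertical axis. Ier2 and Egr1 lie at the upper edge of the grey cloud among genes of like count, and Cd5 lies on the line of no difference.

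The ratio between the libraries moved with the GC content of the transcripts. Over all genes tested the median log2 ratio was −0.27 for genes under 40% GC and 0.51 for genes of at least 60% GC. Ier2 transcripts have 60.9% GC, above 98.2% of tested genes, and Cd69 transcripts have 41%, above 8.57%. Egr1 transcripts have 53.7% GC, where the median ratio was 0.04. With the trend on GC removed, Ier2 was higher by 0.83, Egr1 by 1.06 and Cd69 fell by 0.26 on the log2 scale (adjusted p = 8.73e-93, 3.55e-55 and 8.2e-13, exact binomial test). The same step took Nr4a1 to −0.0052 (adjusted p = 0.961) and Cd5 to −0.11 (adjusted p = 4.5e-09), and left 4 of the 9 genes called higher and 3 lower, where 37.1% of all genes were called, 17.8% higher and 19.3% lower. What part GC content had in the differences was not tested further.

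**Figure D5:**
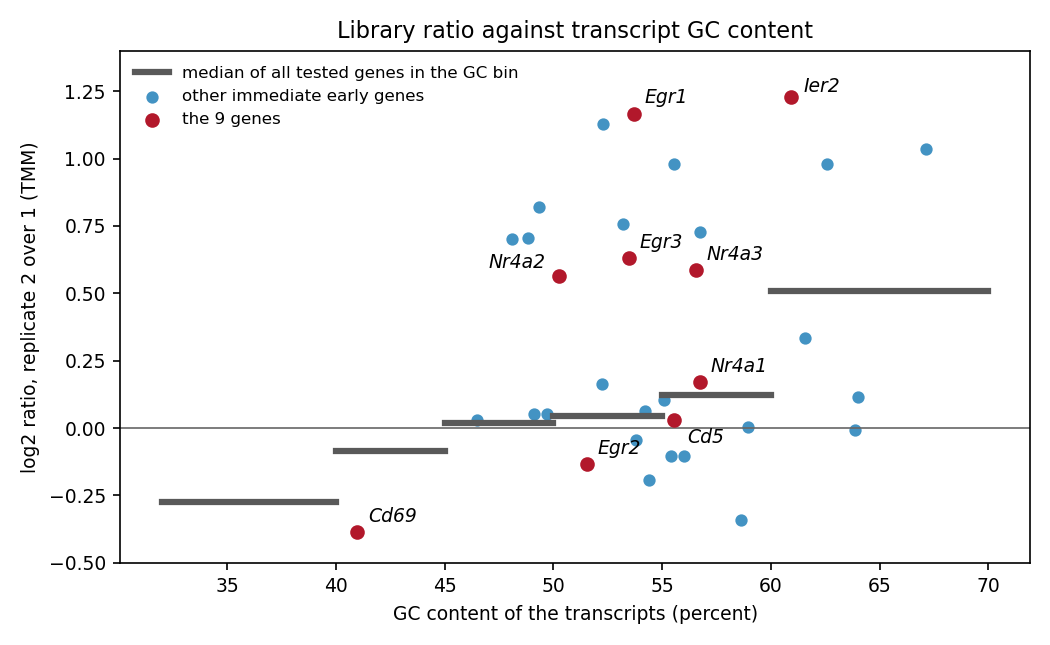
Log2 ratio of replicate 2 over replicate 1 against the GC percent of the transcripts for the 9 genes in red and the other immediate early genes in blue, with grey bars for the median of all tested genes in each GC bin. The grey bars climb from −0.27 to 0.51, Egr1 and Ier2 stand above the bar of their bin, and Cd69 lies below its own.

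The older gene tables, whole counts on GENCODE M4 summing to 6047614 and 5889818, gave the same direction for each of the 9 genes. They called 3 of the 9, all higher in replicate 2, where they called 27.1% of all genes and 19.3% higher. The 3 were Egr1 at 1.18, Ier2 at 0.71 and Nr4a3 at 0.89 on the log2 scale (adjusted p = 1.17e-32, 5.48e-19 and 0.0286, exact binomial test). These tables held 16.6% to 66.7% as many reads of the 9 genes as the newer tables, against medians of 45.1% and 48% over all genes compared. For Ier2 the share was 31.1% in replicate 1 and 23.6% in replicate 2, so the older tables show a smaller gap for this gene.

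Other genes of these pathways were taken from lists. Their calls stand beside 21.6% of all genes called higher and 13% lower in replicate 2, or 17.8% and 19.3% with the GC trend removed. Their medians stand beside a median log2 ratio of 0.02 over all genes tested, or −0.04 with the GC trend removed. Of 27 other immediate early genes 22 were detected, led by Nfkbia, an inhibitor of NF-κB, at 659 TPM, the AP-1 subunit Junb at 407 TPM, and Btg2 and the message-decay factor Zfp36 at 233 and 225 TPM. Fosb, Fosl1, Atf3, Klf4 and Ier5l were each under 1 TPM in both libraries. Between the libraries 11 of the 24 tested were higher in replicate 2 and 2 were lower, with a median log2 ratio of 0.11. Junb was at 273 TPM in replicate 1 and 541 TPM in replicate 2, a log2 ratio of 0.98. The ratio was 0.10 for Nfkbia, 0.05 for Btg2 and −0.10 for Zfp36. After removal of the GC trend the counts were 8 and 3.

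Of 13 genes listed as partners and cofactors of EGR and NR4A proteins 11 were detected. The highest was Zfp36l1 at 128 TPM, a message-decay factor like Zfp36, whose place on this list was not checked. Next were Tox, a factor linked to NR4A in T cells, at 97.4 TPM and the corepressor Ncor1 at 81.8 TPM. Nab2, which binds and restrains EGR proteins, followed at 65 TPM. The remaining family member Egr4 was listed at 0 and 0.12 TPM, and the retinoid receptor Rxrg at 0 in both libraries. In the library comparison 5 of 11 were higher and 2 lower, or 1 and 4 once the GC trend was taken out.

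Of 33 names listed for the serum response and CREB pathway 31 were in the annotation, the other 2 being the older symbols Mkl1 and Mkl2 of Mrtfa and Mrtfb. All 31 were detected, led by the kinase Rps6ka1 at 228 TPM, the factor Nfatc1 at 147 TPM, the Ras activator Rasgrp1 at 122 TPM and the serum response coactivator Mrtfa at 98.6 TPM. Here 16 were higher in replicate 2 and 4 lower, with a median log2 ratio of 0.21, and 15 and 5 once the GC trend was taken out. Rasgrp1 was at 82 TPM in replicate 1 and 163 TPM in replicate 2. Of 21 later antigen receptor response genes 20 were detected, led by the costimulatory receptors Tnfrsf4 at 762 TPM and Tnfrsf18 at 667 TPM, the diacylglycerol kinase Dgka at 614 TPM and Cd6 at 589 TPM, while Spry2 was under 1 TPM. Of the 20 tested 9 were higher and 5 lower, with a median log2 ratio of 0.08. Once the GC trend was taken out 5 were higher and 8 lower, with a median of −0.02, against −0.04 over all genes tested.

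The CD5 and CD69 partners were led by the kinase Lck at 1342 TPM, the myosin light chains Myl12a and Myl12b at 733 and 711 TPM, and Cd6, the close relative of Cd5. Myl9 was under 1 TPM. Of 20 gene records tested, with Myl12b present as 2, 12 were higher in replicate 2 and 4 lower, with a median log2 ratio of 0.10. Without the GC trend the counts were 9 and 6, and the median was −0.03. A list of 24 genes raised by tissue dissociation or heat in published work, which shares Ier2, Egr1 and several immediate early genes with the lists above, was led by the chaperone genes Hspa8 at 1793 TPM and Hsp90ab1 at 650 TPM, with Nfkbia and Junb. Of its 21 genes tested 11 were higher and 5 lower, with a median log2 ratio of 0.10. Without the GC trend 8 were higher and 6 lower, and the median was −0.012. Fosb, Hspa1a, Atf3, Cebpb and Cebpd were under 1 TPM in both libraries, and the last 3 had too few counts to test. What part handling of the cells had in the levels of the 9 genes was not tested.

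The labelled cell type was checked on its markers. All 9 regulatory T cell markers were detected, with Trac at 2780 TPM, Cd4 at 248 TPM and Foxp3 at 86.1 TPM. The 9 summed to 6943 and 6357 TPM, and markers of other cells to less. Of these 9, Trac, Cd3e (1239 TPM) and Cd4 mark CD4 T cells in general. Markers of other CD4 T cells were not listed, so an admixture of such cells was not tested. Summed TPM was 52.6 and 49 for 6 B cell genes, 31.3 and 22.9 for 8 myeloid genes, 21.6 and 13.8 for 6 natural killer genes, and 26.2 and 23.4 for 2 CD8 genes. Most of the B cell sum was Cd79b at 32.6 TPM, above the median of 25.5 TPM of detected coding genes. Nearly all of the CD8 sum was Cd8b1 at 24.1 TPM, while Cd8a was at 0.71 and 0.66 TPM. The neutrophil sum was 0.13 and 0, with S100a8, S100a9, Ly6g and Camp at 0. Among 4 thymocyte genes Rag1 and Rag2 were at 0, Ptcra was at 0.12 and 0 TPM, and Dntt was detected at 1.67 and 1.74 TPM. None of the 6 B cell, 7 myeloid, 4 natural killer and 2 CD8 markers tested was called higher in replicate 2. Called lower were 5 of them, or 10 without the GC trend, where 13% and 19.3% of all genes were called lower. Of the 9 regulatory T cell markers 1 was called higher and 4 lower, or 2 and 7 without the GC trend. Over all genes 21.6% were called higher and 13% lower, or 17.8% and 19.3% without the GC trend. The 6 platelet and red cell genes summed to 70.6 and 82.7 TPM, nearly all of it the haemoglobin gene Hbb-bs.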

How the data were processed

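Polyadenylated RNA of mouse regulatory T cells was measured in 2 technical libraries of 1 biological replicate. Newer gene and transcript tables (mm10, GENCODE M21) and older gene tables (GENCODE M4) were deposited by the authors, per the deposited text descriptions. For aligner and quantifier, the sources used here name none. The deposited expected counts are estimated reads and were rounded for tests, the TPM values deposited by the authors are scaled for length and depth, and the older tables hold deposited whole counts. The posterior mean TPM signal with its credibility bounds and the percent of a gene in each transcript are deposited values, per the file headers. Rows that named no gene held 0.307% and 0.242% of counts and were left out.

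Genes with at least 10 counts over both libraries were compared by a two-sided exact binomial test with TMM scaling, Benjamini-Hochberg adjusted over all genes (threshold 0.05). The binomial test was tried on simulated counts that held counting error only. Such counts cannot show how it behaves under a spread between libraries. edgeR's quasi-likelihood fit could not be made, since no residual degrees of freedom exist, and its exactTest was the alternative. P-values measure only the difference between these libraries, which may be technical. DESeq2 size factors, other count minimums, the older tables, posterior means, and removed GC and length trends (lowess span 0.3) were tried. Tools were R 4.3.3, edgeR 4.0.16, DESeq2 1.42.0, Python 3.11.15, scipy 1.17.1 and statsmodels 0.14.6. Upstream sequences come from RefSeq (GRCm38.p6), and UTR windows from the GENCODE M21 transcripts.

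All 9 genes are named. By the rule, the 4 genes of highest mean TPM in each other list and any under 1 TPM in both libraries may be named. Transcripts are named at 10% of their gene or more in either library, and Egr1-201 was added after its values were seen. Of the marker lists a few genes that met the rule are named, and Cd4 and Foxp3 were added as defining markers. The genes and lists were chosen with earlier results of these data known. With 2 libraries no likeness of pattern across samples could be measured, so no gene is named for one.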

Additional observations from a re-analysis of the deposited data

How the results depend on the processing

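All 9 genes were detected with either library left out (9 and 9). The count of the 9 genes called different between libraries, 7, became 3 with the older gene tables and 0 with edgeR's exactTest. The share of all genes called was 34.7%, 27.1% and 0.622% in turn. With the exactTest 2 of the 9 genes had an unadjusted p under 0.05, as had 1180 of all 16553 genes. The count at least 2-fold apart, 2, became 1 with the older tables and 1 with the GC trend removed. Over all genes 1757 of 16553, 807 of 11507 and 1510 of 16553 were that far apart. The log2 ratio turned from 0.17 to −0.0052 in Nr4a1 and from 0.03 to −0.11 in Cd5 with the GC trend removed. With posterior means, other count minimums, DESeq2 size factors, total counts or the length trend removed, 7 genes stayed the count. Posterior means called 5588 of 16834 genes, and minimums of 1 and 100 counts called 5422 of 28303 and 5370 of 11161. The last 3 settings called 6064, 6444 and 6209 of 16553. Over all genes, calls numbered 5736 with TMM and 3116 with the older tables, where 71.4% were higher, against 47.9% with the GC trend and 48.2% with the length trend removed. The order of the genes by mean TPM was the same with posterior mean TPM and, chosen after seeing the data, with TPM of protein-coding transcripts only, which took Nr4a3 from 4.66 to 1.64 TPM and Egr3 from 5.22 to 3.31 TPM. At 5 TPM in both libraries 6 genes were detected. Leaving out a library gives no test, since 1 library remains. No paired analysis was possible because there is 1 group. At 54 and 68 counts, Nr4a2 is the gene whose values depth limits most.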
